A study of Mus musculus with 7 samples.

Results

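The deposited expression table of mouse neural stem cells holds 57 rodent zinc finger genes whose symbols run from Zfp900 to Zfp999, among 18145 genes in all. They were chosen by symbol alone, and all 57 passed the filter on low values. Neural stem cells are dividing cells that can give rise to neurons and glia, and these were grown as lines and taken at passage 1. TMut cells (labelled Tet-TMut) came from 2 lines, TFoCa cells (labelled Tet-TFoCa, and Tet-FoCa in the design text) from 2 lines and WT cells from 3 lines, with 1 RNA library per line. The labels do not say which Tet alleles the mutant lines carry, nor the strain or the age of their source, and no treatment is stated. The study's title names DNA hydroxymethylation on one side and formylation and carboxylation on the other.

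Most genes with such symbols encode proteins with arrays of zinc fingers, each of which contacts a short stretch of DNA. Many also carry a KRAB domain, which recruits the corepressor Trim28 (KAP1) and, through it, the histone methyltransferase Setdb1 and heterochromatin proteins. KRAB zinc finger proteins are best known for silencing transposable elements in early embryos and embryonic stem cells. They multiply by tandem duplication, so their genes lie in clusters of close copies, and TET enzymes act on the methylated cytosines of DNA by oxidising them in steps.

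The libraries held between 33340167 and 62545457 reads assigned to genes. The neural label was set against 12 marker genes, none of which was at 0 in any library. Nes, an intermediate filament of neural progenitors, had 11420 to 15120 normalized counts in TMut, 9651 to 11480 in TFoCa and 14910 to 21390 in WT. Of the 12 markers 10 fell in TMut relative to WT, among them Sox2, a transcription factor of neural progenitors, and 2 fell in TFoCa. Markers of pluripotent cells were also present: the summed normalized counts of 10 such genes were 14257 and 57457 in the TMut libraries, 1059 and 1355 in the TFoCa libraries and 13737, 28143 and 16990 in the WT libraries. In bulk RNA, fewer cells of a type and less RNA per cell cannot be told apart.

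The members lay on 11 chromosomes in the mouse annotation. Chromosome 4 held 16 of them, chromosome 17 held 13 (10 of these in 1 cluster), chromosome 7 held 9, and chromosomes 2 and 8 held 5 each. Zfp998 was not matched to the annotation and has no position or length here. Among the 56 matched members, the longest open reading frame held a median of 11 zinc fingers of the classical cysteine and histidine spacing. In 51 members it held 5 or more, and Zfp974 had the most, with 21. In 4 members (Zfp972, Zfp978, Zfp986 and Zfp993) it held none.

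The promoters shown are mostly of chromosome 4, which held 16 of the members and 10 of the 19 called in any of the 3 comparisons, where 49.8% of all genes tested were called in any. Windows of 300 bases, from 250 bases before to 50 after the start, come from RefSeq in build GRCm38.p6, and 47 of the 57 members had one. The windows of Zfp980, Zfp981, Zfp988 and Zfp985 belong to the 4 chromosome 4 members that fell in TFoCa relative to WT, and that of Zfp936 belongs to a chromosome 7 member that fell with them. Those of Zfp933 and Zfp984 belong to chromosome 4 members that were called in no comparison. Capitals mark CCAAT or its reverse ATTGG, and GGGCGG or its reverse CCGCCC.
Zfp980, chr4:145670447-145670746, plus strand: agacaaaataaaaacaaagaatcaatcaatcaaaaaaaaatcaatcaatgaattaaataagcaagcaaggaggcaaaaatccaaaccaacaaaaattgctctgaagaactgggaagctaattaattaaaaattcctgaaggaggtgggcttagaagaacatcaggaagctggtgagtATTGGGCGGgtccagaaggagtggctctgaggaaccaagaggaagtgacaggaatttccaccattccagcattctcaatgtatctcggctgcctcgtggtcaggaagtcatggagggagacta
Zfp981, chr4:146514670-146514969, plus strand: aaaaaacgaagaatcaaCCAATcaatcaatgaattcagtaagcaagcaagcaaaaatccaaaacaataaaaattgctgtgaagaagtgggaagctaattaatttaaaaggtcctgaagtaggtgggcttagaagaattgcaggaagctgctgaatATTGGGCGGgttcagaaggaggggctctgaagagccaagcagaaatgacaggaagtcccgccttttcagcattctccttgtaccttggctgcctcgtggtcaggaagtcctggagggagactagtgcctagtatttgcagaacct
Zfp988, chr4:147305354-147305653, plus strand: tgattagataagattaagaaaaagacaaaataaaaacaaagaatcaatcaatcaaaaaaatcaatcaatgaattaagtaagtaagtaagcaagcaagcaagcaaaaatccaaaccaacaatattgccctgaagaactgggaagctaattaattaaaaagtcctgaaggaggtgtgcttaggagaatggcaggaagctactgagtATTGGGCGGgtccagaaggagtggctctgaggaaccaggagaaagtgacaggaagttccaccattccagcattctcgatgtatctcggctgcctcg
Zfp985, chr4:147553027-147553326, plus strand: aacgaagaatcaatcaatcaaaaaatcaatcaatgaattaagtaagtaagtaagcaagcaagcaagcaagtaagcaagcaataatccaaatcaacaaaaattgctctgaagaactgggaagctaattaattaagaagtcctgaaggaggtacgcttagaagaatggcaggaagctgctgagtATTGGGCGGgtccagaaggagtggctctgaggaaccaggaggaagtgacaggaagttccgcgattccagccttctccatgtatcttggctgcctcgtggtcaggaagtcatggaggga
Zfp936, chr7:43177340-43177639, plus strand: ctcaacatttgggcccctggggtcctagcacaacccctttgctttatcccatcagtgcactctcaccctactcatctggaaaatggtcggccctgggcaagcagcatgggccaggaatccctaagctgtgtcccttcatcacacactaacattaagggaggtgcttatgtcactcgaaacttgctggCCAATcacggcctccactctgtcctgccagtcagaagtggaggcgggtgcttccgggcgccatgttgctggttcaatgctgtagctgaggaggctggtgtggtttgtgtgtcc
Zfp933, chr4:147848369-147848668, minus strand: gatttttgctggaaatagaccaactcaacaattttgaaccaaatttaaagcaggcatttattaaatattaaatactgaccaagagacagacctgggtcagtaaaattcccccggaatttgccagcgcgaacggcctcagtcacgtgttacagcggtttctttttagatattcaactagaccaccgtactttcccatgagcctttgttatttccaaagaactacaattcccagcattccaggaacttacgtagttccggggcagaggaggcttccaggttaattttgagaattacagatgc
Zfp984, chr4:147809739-147810038, minus strand: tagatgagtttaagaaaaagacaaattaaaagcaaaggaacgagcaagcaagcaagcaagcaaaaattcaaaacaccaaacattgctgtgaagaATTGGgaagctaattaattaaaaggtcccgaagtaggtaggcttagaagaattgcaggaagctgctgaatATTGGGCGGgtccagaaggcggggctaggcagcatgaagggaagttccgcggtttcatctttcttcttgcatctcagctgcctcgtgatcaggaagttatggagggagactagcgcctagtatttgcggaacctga

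In 6 of these 7 windows a CCAAT box was found on one strand or the other, and that of Zfp933 held none. CCAAT on either strand was present in 35 of the 47 windows of the members (74.5%), against 37.9% of the first windows of 27025 genes. GGGCGG on either strand was in 40.4% of the members' windows, against 35.9% of those of all genes, and TATAAA on either strand was in 0 of 47, against 14.2%. In Zfp980, Zfp981, Zfp988, Zfp985 and Zfp984 the 2 motifs are joined as ATTGGGCGG, in which they share bases. This joined form, searched on both strands after the sequences had been seen, was in 8 of the 47 windows (17.0%), against 75 of the 27025 genes (0.278%). The other 3 were Zfp979 on chromosome 4 and Zfp947 and Zfp994 on chromosome 17, and Zfp982 held it only in an alternative window. Among the 10 windows of the chromosome 4 members, identity in a global alignment reached 91.0%, between Zfp979 and Zfp980, with a median of 55.0% over 45 pairs, so some of these windows are near copies and not separate observations.

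The windows also differed in CpG content, the sites that carry most DNA methylation in mammals. The median was 4.5 CpG in the 10 windows of chromosome 4 members and 9.0 in the 37 windows of the other members, against 7.0 over all genes. The 5 members with a window that fell in TFoCa had 3 to 6 CpG. Low CpG content was also found in members that did not pass the test, as the plot of CpG count against the change in TFoCa shows.

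**Figure D1:**
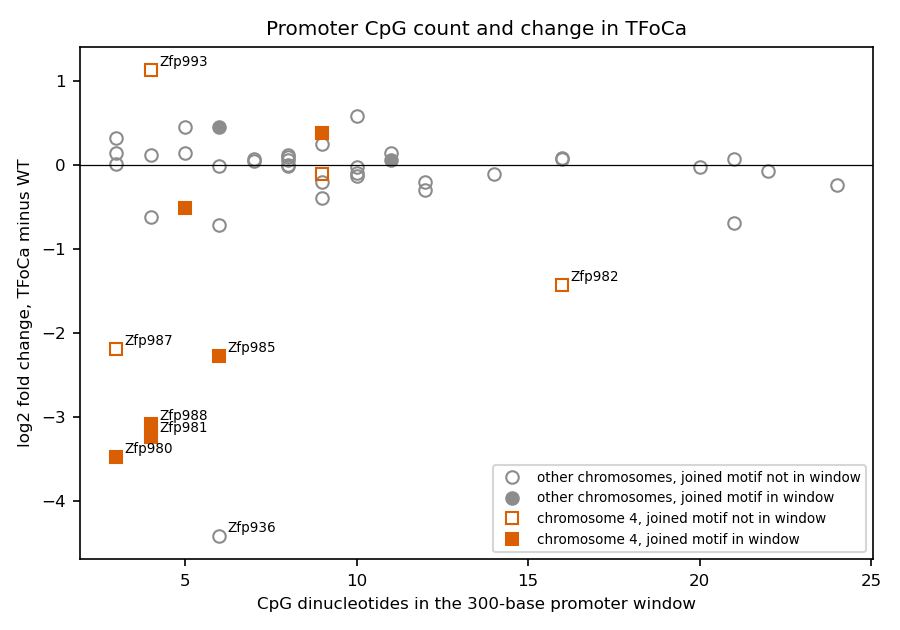
CpG dinucleotides in the 300-base promoter window (x axis) against the log2 fold change of TFoCa minus WT (y axis) for the 47 members with a window. Squares are chromosome 4 members, circles other members, and filled symbols hold the joined motif ATTGGGCGG. The 5 members called lower in TFoCa lie at 3 to 6 CpG, among other members with as few CpG and values near 0.

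Levels were compared between genes per kb of exon first, and then on normalized counts without correction for length. In WT, mean normalized counts per kb of exon ran from 7.886 for Zfp993 to 290.3 for Zfp946, with Zfp932 at 232.5 and Zfp961 at 218.6 next below it, and the median over the 56 members with a length was 64.67. Zfp932 is known to bind endogenous retroviral elements in mouse. On the scale of normalized counts, 35 of the 57 members had 100 or more in all 7 libraries. The members' WT means ran from 10.05 to 1017 with a median of 245.6, against 726.6 over all genes tested. Gene length may enter this last difference. Zfp946, Zfp961 and Zfp952 had the highest WT means and Zfp993, Zfp986 and Zfp972 the lowest.

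A gene was called when limma, fitted over all 18134 genes tested, gave a Benjamini-Hochberg adjusted p under 0.05; fold changes are log2 values of the normalized count plus 1, with their standard error, and understate the change of genes with few counts. Of the 57 members 19 were called in at least 1 of the 3 comparisons (33.3%, against 49.8% of all genes tested) and 38 in none. Of the 16 chromosome 4 members 10 were called, and of the other 41 members 9 were. These 41 include Zfp998, which was not placed on any chromosome. The 38 uncalled members included 10 on chromosome 17, 6 on chromosome 4 and 5 each on chromosomes 2 and 7.

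**Figure D2:**
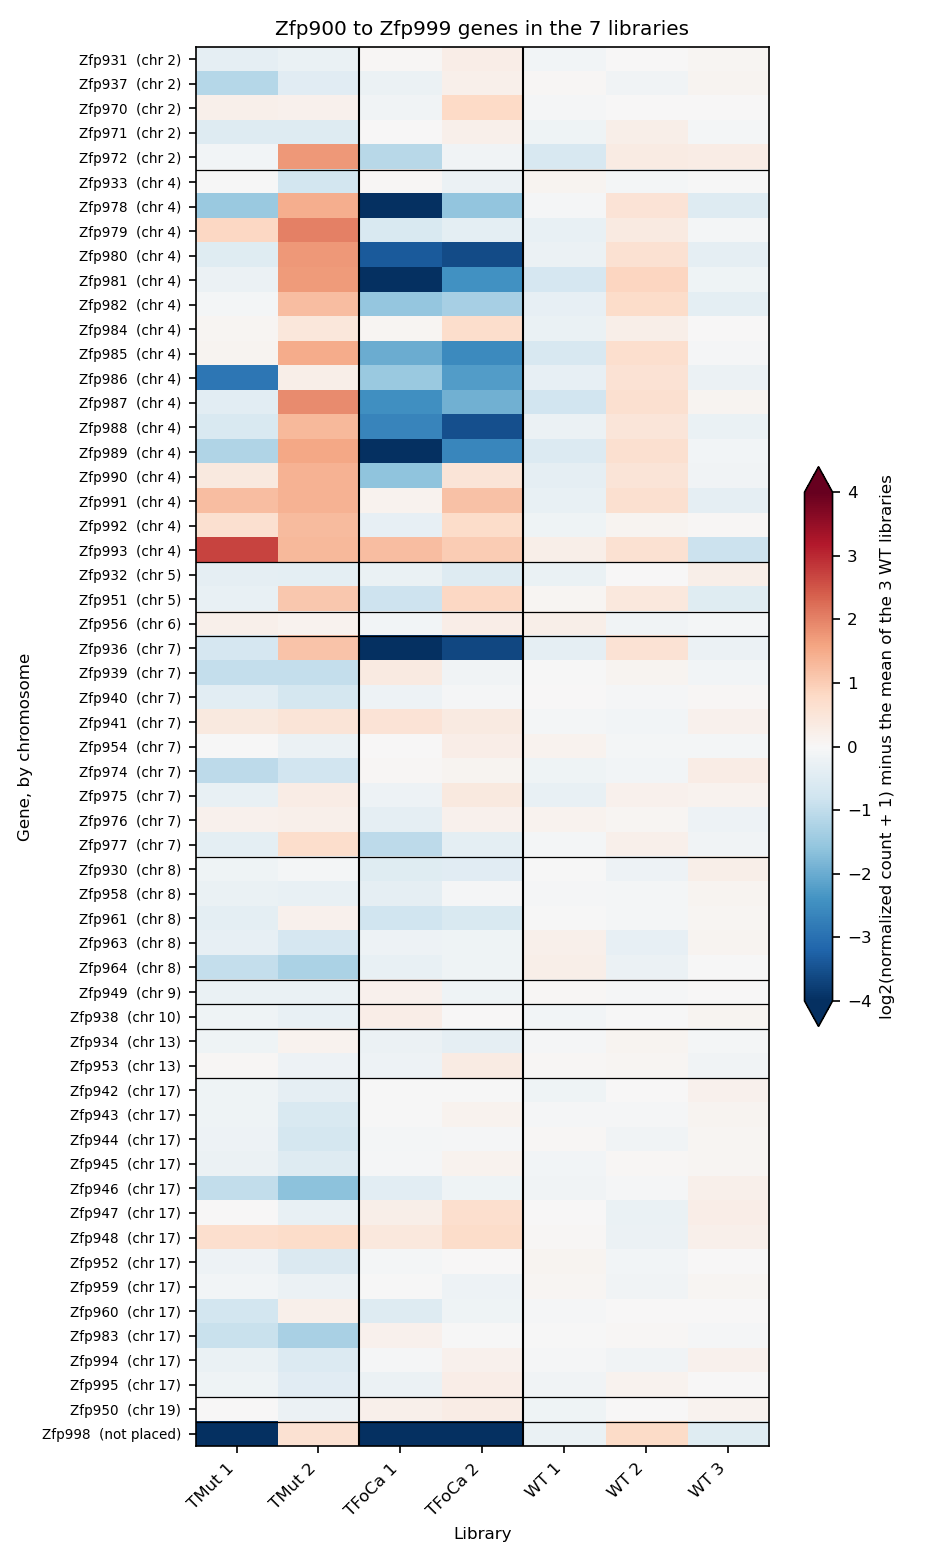
The 57 members (rows, by chromosome) in the 7 libraries (columns). Colour gives log2(normalized count + 1) minus the mean of the 3 WT libraries, with values beyond 4 in either direction drawn at the end of the scale. Both TFoCa libraries are low for much of the chromosome 4 block and for Zfp936 and Zfp998, and TMut replicate 2 is high across most of that block.

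In TFoCa cells, a set of the chromosome 4 members had far less RNA than in WT cells, as did Zfp936 on chromosome 7 and Zfp998. Of the 57 members 6 fell in TFoCa relative to WT (10.5%) and 0 rose, where 3.52% of all genes tested fell and 5.25% rose (8.77% called in all). On chromosome 4, 4 of 16 members fell, and the median log2 fold change of the 16 was -1.64. In the other 41 members 2 fell (Zfp936 and the unplaced Zfp998) and the median was -0.01, against -0.02 over all genes tested. Over all 57 members the median was -0.07. Both TFoCa libraries lay below all 3 WT libraries in 18 of 57 members (31.6%), where 24.2% of all genes did so, and above them in 4 (7.02%), where 21.0% did so.

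Zfp936, on chromosome 7 and with 4.01% of its 100-base stretches found in another gene's transcripts, had 1.916 and 7.303 normalized counts in TFoCa, against 80.02, 155.3 and 88.58 in WT. Both TFoCa values were far below the lowest WT value. The log2 fold change was -4.41 ± 0.67 (limma, adjusted p = 0.01022). Zfp980 had 11.49 and 9.737 normalized counts in TFoCa, against 107.5, 192.1 and 98.93 in WT, a log2 fold change of -3.47 ± 0.63 (adjusted p = 0.01735). The groups did not overlap, and WT replicate 2 was the highest WT library.

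Zfp988 had 7.663 and 3.651 normalized counts in TFoCa and 44.72, 74.8 and 43.71 in WT (log2 fold change -3.08 ± 0.63, adjusted p = 0.02469). Zfp981 had 8.621 and 27.99 in TFoCa and 96.5, 284.6 and 138 in WT (-3.23 ± 0.73, adjusted p = 0.03546). Zfp985 had 51.72 and 35.3 in TFoCa and 134.2, 337.8 and 202.5 in WT (-2.27 ± 0.51, adjusted p = 0.03354). In each of these 3 genes both TFoCa libraries were below every WT library, and WT replicate 2 was again the highest. Copies of a cluster can share reads: 44.56% of the 100-base stretches of Zfp988 and 45.57% of those of Zfp980 occurred in another gene's transcripts, so their separate values are uncertain. The share was 12.24% for Zfp981 and 1.73% for Zfp985. The same uncertainty holds for 3 further chromosome 4 members, Zfp989 (42.49%), Zfp978 (60.5%) and Zfp986 (70.03%), and for Zfp987 (70.81%).

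Zfp998 had 0 reads in both TFoCa libraries and 47.86, 98.88 and 41.41 normalized counts in WT. With a floor of 3 reads over the TFoCa group, it was at least 38.45-fold lower in TFoCa, a log2 difference of -5.26 or beyond (limma, adjusted p = 0.02727). The floor covers counting error only, and it would be weaker by 1 log2 unit if both mates of a read pair were counted.

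Of the members that were not called, Zfp989 and Zfp978 had the largest differences in this comparison. Zfp989 had 0 and 2.434 normalized counts in TFoCa, against 13.34, 31.06 and 18.41 in WT, with no overlap. That is 2 reads over both TFoCa libraries, a ratio of TFoCa to WT of 0.0512 with a 95% Poisson interval of 0.006201 to 0.185 (limma, adjusted p = 0.05847). The interval covers counting error of independent reads only, and would be wider if each mate had been counted separately. Zfp978 had 3.831 and 24.34 in TFoCa and 72.18, 111.6 and 52.92 in WT (log2 fold change -2.79 ± 0.97, adjusted p = 0.1184).

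Some chromosome 4 members had TFoCa values that overlapped the WT range. Zfp984, whose window carries the joined motif, had 410 and 632.9 normalized counts in TFoCa and 326.4, 461.5 and 398 in WT (0.38, adjusted p = 0.3918). Zfp933 had 397.5 and 326.2 in TFoCa and 411.9, 367.6 and 378.5 in WT (-0.1, adjusted p = 0.8418). Both genes were named after their values were seen. Among 11 other genes that lie between the chromosome 4 members, 2 fell and 0 rose, where 3.52% of all genes fell and 5.25% rose. The 2 were Zfp534 (-4.08 ± 0.64, adjusted p = 0.01104) and Rex2 (-2.94 ± 0.56, adjusted p = 0.02017), also named after their values were seen. Transcripts of Rex2 held 39.17% of the stretches of Zfp980, so the falls of Rex2 and Zfp980 may not be separate observations. Over 1042 other genes of chromosome 4 the median log2 fold change was -0.07. Of 298 other genes with a number after Zfp, 5 rose and 9 fell, with a median of -0.08.

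**Figure D3:**
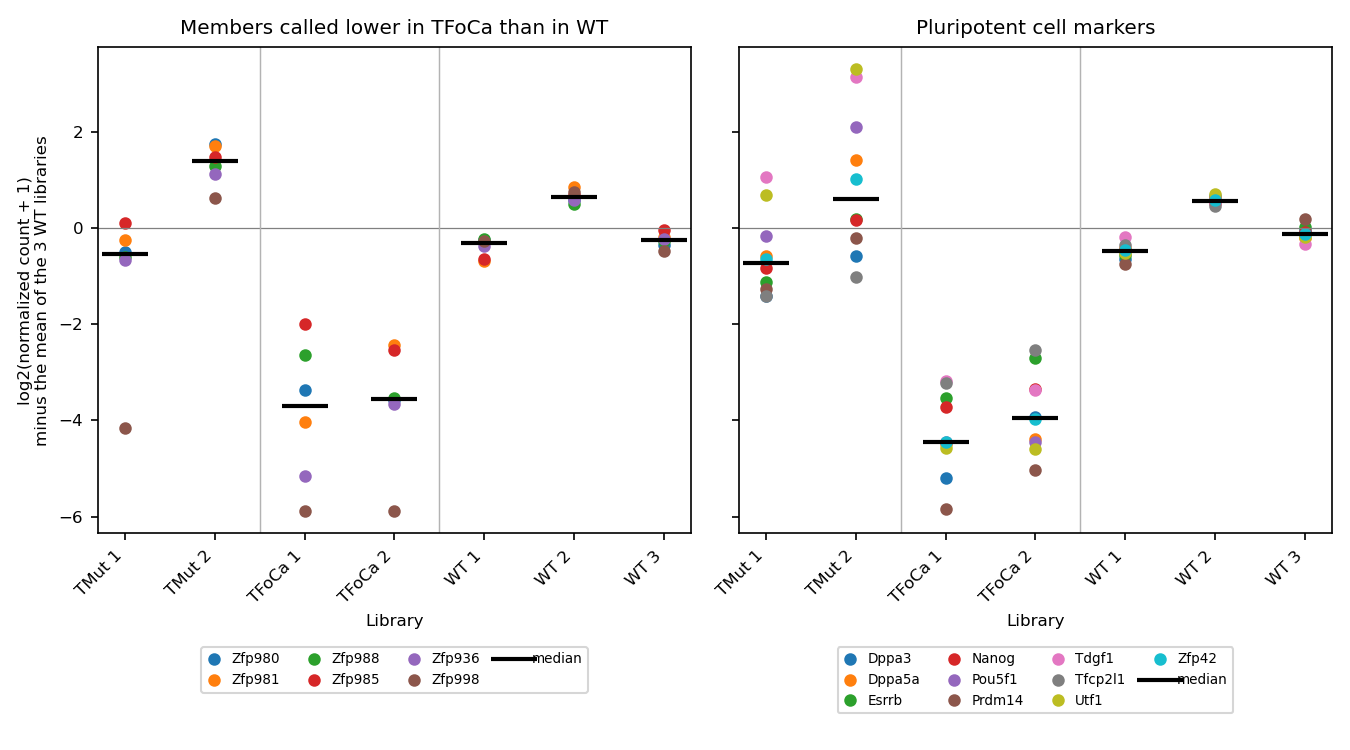
Log2(normalized count + 1) minus the mean of the 3 WT libraries (y axis) in each library (x axis) for the 6 members called lower in TFoCa (left) and for 10 pluripotent cell markers (right), with bars at the median. The members on the left were chosen for being lower in TFoCa than in WT, so TFoCa lies below WT there by that choice. On the right TFoCa is the lowest genotype. In both panels TMut replicate 2 and WT replicate 2 are the highest libraries of their genotypes by the median.

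Markers of pluripotent cells moved with this difference. All 10 of the list fell in TFoCa relative to WT, with a median log2 fold change of -4.32. The smallest adjusted p belonged to Nanog (-3.53 ± 0.35, adjusted p = 0.002902) and Prdm14 (-5.44 ± 0.55, adjusted p = 0.003109), both transcription factors of pluripotent cells. Their summed normalized counts, given above, were 1059 and 1355 in TFoCa and 13737 to 28143 in WT, and none was at 0. The library order was alike. WT replicate 2 was the highest WT library in 10 of 10 markers and in 15 of 16 chromosome 4 members (93.75%). This held for 29.9% of all genes. Several of the 16 share much of their sequence with other transcripts, as given above, so the 16 are not separate observations. Mesenchymal markers moved too: 10 of 12 rose in TFoCa relative to WT, with summed counts of 432577 and 478398 in TFoCa and 160346 to 174899 in WT. The part of these cells in the members' difference was not tested.

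The call of Zfp936 held with any 1 library left out (adjusted p between 0.007903 and 0.04656), while the other 5 calls were each lost without at least 1 WT or TFoCa library, at adjusted p between 0.05188 and 0.1149. Leaving out WT replicate 1, 2 or 3 gave 2, 1 and 1 called members, leaving out TFoCa replicate 1 or 2 gave 3 and 2, and leaving out either TMut library gave 9, against 6 with all libraries; the count was 0 with limma-voom, where Zfp936 had an adjusted p of 0.05341; each of the 6 called log2 fold changes stayed negative throughout.

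The KRAB zinc finger proteins act through shared partners, and a list of 28 genes of corepressor and heterochromatin machinery was measured. The list also holds Zfp57 and Zfp445, which are KRAB zinc finger genes themselves and not such partners. Both are counted among the 298 other numbered Zfp genes too. In TFoCa 2 of the 28 fell and 0 rose relative to WT, where 3.52% of all genes fell and 5.25% rose. Their median log2 fold change was -0.16. Uhrf1, which guides maintenance methylation of DNA, fell by 0.81 on the log2 scale (SE 0.17, adjusted p = 0.03055), and Dnmt1, the maintenance methyltransferase, fell by 0.51 (SE 0.09, adjusted p = 0.01561). Trim28, the corepressor that the KRAB domain binds, had -0.61 ± 0.16 (adjusted p = 0.05204) and Setdb1 had -0.21 ± 0.08 (adjusted p = 0.1583). Both were named after their values were seen.

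In TMut cells a smaller share of the members than of all genes tested was called relative to WT. Of those called, the chromosome 4 members were higher than in WT, and most of the others were lower. Relative to WT, 4 of the 57 members rose and 6 fell (17.5% called), where 18.4% of all genes rose and 20.4% fell (38.8% called). On chromosome 4, 3 rose and 0 fell, with a median log2 fold change of 0.68. In the other 41 members 1 rose and 6 fell, with a median of -0.27, against 0.0 over all genes and -0.30 over the 298 other numbered Zfp genes, of which 12 rose and 98 fell. Both TMut libraries lay below all 3 WT libraries in 21 of 57 members (36.8%), where 33.6% of all genes did so, and above them in 8 (14.0%), where 33.4% did so.

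Among the members that rose, Zfp979 had 552.9 and 1261 normalized counts in TMut, against 258.1, 406.3 and 295.6 in WT. Both TMut libraries were above every WT library, and replicate 2 was the higher. The log2 fold change was 1.41 ± 0.35 (limma, adjusted p = 0.01642). Zfp993 had 64.5 and 24.01 in TMut and 10.98, 14.58 and 4.602 in WT (2.0 ± 0.63, adjusted p = 0.03786). Zfp991 had 119.8 and 132.1 in TMut and 40.8, 77.96 and 39.11 in WT (1.31 ± 0.44, adjusted p = 0.04722). Neither gene's TMut values overlapped those of WT. These 2 genes share 71.85% and 70.34% of their 100-base stretches with other transcripts, so their separate values are uncertain. Zfp948, on chromosome 17 and with 0.0% shared, had 791.3 and 832 in TMut and 512.3, 426 and 571.7 in WT (0.70 ± 0.18, adjusted p = 0.01641), with no overlap.

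Of those that fell, Zfp983 and Zfp946, both on chromosome 17, had the smallest adjusted p. Zfp983 had 252.3 and 188.5 normalized counts in TMut, against 460.5, 488.1 and 454.4 in WT (-1.10 ± 0.18, adjusted p = 0.003022). Zfp946, the member with the highest level per length in WT, had 513.7 and 324.2 in TMut, against 909.3, 977.4 and 1165 in WT (-1.31, adjusted p = 0.003028). Both genes were lower in each TMut library than in any WT library. Zfp964, on chromosome 8, had 152 and 120.1 in TMut and 343.6, 251 and 289.9 in WT (-1.11 ± 0.22, adjusted p = 0.006735). It did not overlap between the groups either.

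The other 3 that fell lie on chromosome 7. Zfp974, with the most fingers, had 148.6 and 177.7 normalized counts in TMut and 269.1, 284.6 and 371.6 in WT (-0.91 ± 0.21, adjusted p = 0.01285). Zfp939 had 64.5 and 64.83 in TMut and 124, 135.6 and 117.3 in WT (-0.95 ± 0.27, adjusted p = 0.02582). Zfp940 had 392.8 and 319.4 in TMut and 530.3, 501.4 and 538.4 in WT (-0.56 ± 0.16, adjusted p = 0.02708). In none of these 3 did the 2 groups overlap. Markers of other cells moved with these decreases: all 10 neuron markers fell in TMut relative to WT, with summed counts of 17025 and 9785 in TMut and 70332 to 74096 in WT, and Neurod6 was at 0 in TMut replicate 2. Of the 12 neural stem cell markers 10 fell, with summed counts of 156239 and 130993 in TMut and 190859 to 198642 in WT. Of the 12 mesenchymal markers 7 rose and 2 fell, with summed counts of 397659 and 307763 in TMut and 160346 to 174899 in WT. Their part in the members' values was not tested.

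In TMut the 2 lines differed strongly for some members. Zfp998 had 2.304 and 90.04 normalized counts in TMut, against 47.86, 98.88 and 41.41 in WT, so replicate 1 lay below and replicate 2 within the WT range (log2 fold change -1.77 ± 1.23, adjusted p = 0.2899). Zfp986 had 1.152 and 18.01 in TMut, against 11.77, 22.82 and 12.65 in WT, with the same pattern (-1.33 ± 0.92, adjusted p = 0.2886). TMut replicate 2 had the highest value of all 7 libraries in 12 of the 16 chromosome 4 members (75.0%), where this held for 24.81% of all genes. It was at least 2-fold above replicate 1 in 10 of the 16, where this held for 7.003% of all genes. The 16 share sequence in part and are not separate observations. All 10 pluripotent markers were also higher in TMut replicate 2 than in replicate 1, with summed counts of 57457 and 14257. Of the list, Tdgf1 rose and Tfcp2l1 fell in TMut relative to WT and the other 8 were not called. The part of these cells in the members' values was not tested.

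Zfp964, Zfp983 and Zfp946 kept their calls with any 1 library left out, at adjusted p between 0.001661 and 0.04305, while the other 7 calls were each lost without some library, at adjusted p between 0.05067 and 0.2074. Leaving out WT replicate 1, 2 or 3 gave 5, 7 and 4 called members, and leaving out TMut replicate 2 gave 7; without TMut replicate 2 the log2 fold change of Zfp979 was 0.81 (adjusted p = 0.0943), and without TMut replicate 1 that of Zfp993 was 1.3 (adjusted p = 0.2074).

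Of the 28 genes of the machinery list 2 rose and 8 fell in TMut relative to WT, where 18.4% of all genes rose and 20.4% fell. The median log2 fold change of the 28 was -0.02. Among the 8 was the KRAB zinc finger gene Zfp445 (-0.48 ± 0.1, limma, adjusted p = 0.006785), named after its value was seen. Tasor, a core subunit of the HUSH silencing complex, had -0.80 ± 0.15 (limma, adjusted p = 0.004603), and Cbx3, a heterochromatin protein that reads methylated histone H3, had -0.50 ± 0.10 (adjusted p = 0.005267). The 2 that rose were Hdac1 (0.48 ± 0.09, adjusted p = 0.00637) and Dnmt3b (2.34 ± 0.47, adjusted p = 0.006501), named after their values were seen. Trim28 had 0.11 ± 0.16 (adjusted p = 0.5991).

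Set against TFoCa, TMut cells had more RNA of 8 of the 16 chromosome 4 members and of 2 others, and less of 5 members elsewhere. Of the 57 members 10 rose and 5 fell in TMut relative to TFoCa (26.3% called), where 17.3% of all genes rose and 18.5% fell (35.8% called). On chromosome 4, 8 of 16 rose and 0 fell, with a median log2 fold change of 1.96. In the other 41 members 2 rose (Zfp936 and the unplaced Zfp998) and 5 fell, with a median of -0.26. Among 11 other genes between the chromosome 4 members 4 rose and 0 fell, with a median of 0.76. Of the 298 other numbered Zfp genes 14 rose and 80 fell, with a median of -0.26. Both TMut libraries lay above both TFoCa libraries in 17 of 57 members (29.8%), where 33.9% of all genes did so, and below in 21 (36.8%), where 33.5% did so. This comparison shares its TFoCa libraries with that of TFoCa and WT and its TMut libraries with that of TMut and WT. A member low in TFoCa therefore enters this comparison and that of TFoCa with WT in opposite directions.

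All 6 members that fell in TFoCa relative to WT were among the 10. Zfp936 had 64.5 and 226.9 normalized counts in TMut, against 1.916 and 7.303 in TFoCa (4.63 ± 0.73, limma, adjusted p = 0.003896). Zfp980 had 89.84 and 426.2 in TMut, against 11.49 and 9.737 in TFoCa (4.09 ± 0.69, adjusted p = 0.004787). Both TMut values of each gene were above the TFoCa values, with replicate 2 the higher. Zfp985 had 224.6 and 587.1 in TMut, against 51.72 and 35.3 in TFoCa (3.06, adjusted p = 0.006042). Zfp988 had 34.55 and 130.9 in TMut, against 7.663 and 3.651 in TFoCa (3.43, adjusted p = 0.008529). Zfp981 had 131.3 and 512.6 in TMut, against 8.621 and 27.99 in TFoCa (3.96, adjusted p = 0.008842). None of these overlapped between the 2 genotypes. Zfp998 had 2.304 and 90.04 in TMut and 0 reads in TFoCa, at least 28.31-fold higher over the TMut mean (adjusted p = 0.04774), with replicate 1 near the TFoCa level.

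Another 4 members, all on chromosome 4, rose in TMut relative to TFoCa. Zfp979 had 552.9 and 1261 normalized counts in TMut, against 205.9 and 237.3 in TFoCa (1.91 ± 0.39, adjusted p = 0.008753). Zfp987 had 50.68 and 253.3 in TMut, against 11.49 and 17.04 in TFoCa (2.93 ± 0.77, adjusted p = 0.02279). Zfp982 had 35.71 and 91.24 in TMut, against 12.45 and 14.61 in TFoCa (2.01 ± 0.60, adjusted p = 0.03486). In each the TMut values were above both TFoCa values, and 70.81% of the stretches of Zfp987, but 3.06% of those of Zfp982, were shared with other transcripts. Zfp989 had 8.063 and 60.03 in TMut and 0 and 2.434 in TFoCa, a ratio of TFoCa to TMut of 0.03149 with a 95% Poisson interval of 0.003813 to 0.1137 (adjusted p = 0.02716), with the same limit on the interval as before.

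The 5 members that fell in TMut relative to TFoCa were also among the 6 that fell relative to WT. Zfp983 had 252.3 and 188.5 normalized counts in TMut, against 523 and 458.9 in TFoCa (-1.16, adjusted p = 0.005075). Zfp946 had 513.7 and 324.2 in TMut, against 761.5 and 904.3 in TFoCa (-1.02, adjusted p = 0.01491). In both genes each TFoCa value was above each TMut value. Zfp974 had 318 and 331.1 in TFoCa (-0.99 in TMut, adjusted p = 0.01525), Zfp939 had 162.8 and 114.4 (-1.07, adjusted p = 0.02563) and Zfp964 had 237.5 and 256.8 (-0.87, adjusted p = 0.02902), all above the TMut values given before. Zfp940, with 453.1 and 506.3 in TFoCa, had -0.43 (adjusted p = 0.0897).

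Of the members not called here, Zfp978 and Zfp972 had the largest differences. Zfp978 had 26.49 and 208.9 normalized counts in TMut, against 3.831 and 24.34 in TFoCa (2.78 ± 1.06, adjusted p = 0.07513), and its TMut replicate 1 was just above its TFoCa replicate 2. Zfp972, on chromosome 2, had 16.13 and 61.23 in TMut, against 7.663 and 15.82 in TFoCa (1.44 ± 0.74, adjusted p = 0.166), with TMut replicate 1 and TFoCa replicate 2 at nearly the same level.

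**Figure D4:**
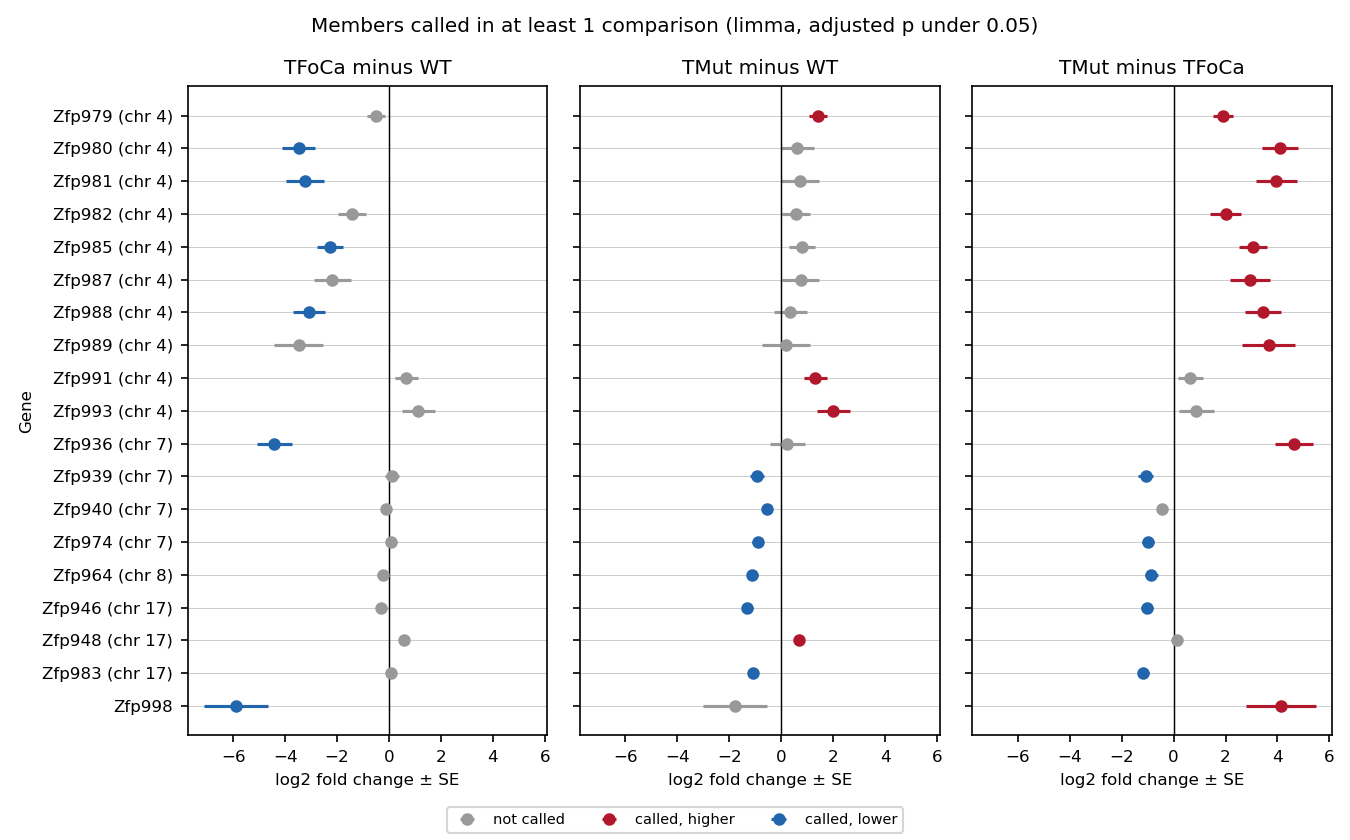
Log2 fold change with its standard error (x axis) for the 19 members called in at least 1 comparison (rows, by chromosome), for TFoCa minus WT, TMut minus WT and TMut minus TFoCa. The chromosome 4 members with negative values in the left panel have positive values in the right one, and the 5 members lower in TMut in both its comparisons lie within 0.24 of 0 on the left apart from Zfp946; the values drawn for Zfp998 depend on the value of 1 added before the log.

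As in the comparison of TFoCa with WT, markers of pluripotent cells moved with the chromosome 4 members. All 10 rose in TMut relative to TFoCa, with a median log2 fold change of 4.55, among them Tdgf1 (5.36 ± 0.60, adjusted p = 0.001692) and Utf1 (6.58 ± 0.75, adjusted p = 0.001797), and their summed counts were 14257 and 57457 in TMut against 1059 and 1355 in TFoCa. Of the 28 genes of the machinery list 6 rose and 4 fell, with a median of 0.09, where 17.3% of all genes rose and 18.5% fell. The 4 included the KRAB zinc finger gene Zfp445 (-0.53 ± 0.11, limma, adjusted p = 0.008714), named after its value was seen. Hdac1, a histone deacetylase, had 0.76 ± 0.10 (limma, adjusted p = 0.002634). Dnmt3b, a DNA methyltransferase that sets new methylation, had 3.49 ± 0.51 (adjusted p = 0.003136). Other markers moved too: 9 of 10 neuron markers and 10 of 12 neural stem cell markers fell in TMut relative to TFoCa, and 2 of 12 mesenchymal markers rose and 4 fell. Summed neuron counts were 17025 and 9785 in TMut and 53023 and 54699 in TFoCa, and Neurod6 was at 0 in TMut replicate 2. Summed neural stem cell counts were 156239 and 130993 in TMut and 159683 and 170696 in TFoCa, and summed mesenchymal counts were 397659 and 307763 in TMut and 432577 and 478398 in TFoCa. The part of any of these cells in the members' values was not tested.

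Calls for Zfp980, Zfp988, Zfp985, Zfp979, Zfp936 and Zfp983 held with any 1 library left out, and the other 9 were each lost without some library, at adjusted p between 0.05042 and 0.1851. The count of 15 called members was 7 without TMut replicate 2 and 9 without TFoCa replicate 1; without TMut replicate 2 the log2 fold change was 1.78 for Zfp987, 2.29 for Zfp989 and 1.72 for Zfp998, and without TMut replicate 1 it was 6.51 for Zfp998.

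The chromosome 17 cluster, the second largest group of members, is set beside the chromosome 4 members. Of its 10 members 0 were called in TFoCa relative to WT, where 8.77% of all genes were called, with a median log2 fold change of 0.06. In TMut relative to WT 1 rose (Zfp948) and 2 fell (Zfp983 and Zfp946), with a median of -0.38, where 18.4% of all genes rose and 20.4% fell. In TMut relative to TFoCa the same 2 fell and 0 rose, with a median of -0.44, where 17.3% of all genes rose and 18.5% fell. The summed normalized counts of the cluster were 4113 and 3404 in TMut, 4813 and 5371 in TFoCa and 4670, 4791 and 5361 in WT. Those of the 16 chromosome 4 members were 3025 and 6045 in TMut, 1545 and 2425 in TFoCa and 2113, 3335 and 2386 in WT. In the chromosome 17 cluster TMut was the lowest genotype. This was also so for the 298 other numbered Zfp genes, with mean sums of 335987 in TMut, 393870 in TFoCa and 425191 in WT. Among 12 other genes between the chromosome 17 members, 0 rose and 3 fell in TMut relative to each other genotype. Their median log2 fold changes were -0.48 relative to WT and -0.55 relative to TFoCa. Over the chromosome 4 members TFoCa replicate 1 was the lowest library and TMut replicate 2 the highest.

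The remaining members were called in no comparison. Among the 10 uncalled chromosome 17 members, which include Zfp952, Zfp945 and Zfp960, log2 fold changes ran from -0.34 to 0.45 in TFoCa relative to WT and from -0.45 to -0.14 in TMut relative to WT, so all 10 had a lower mean in TMut. The 5 uncalled chromosome 7 members (Zfp941, Zfp954, Zfp975, Zfp976 and Zfp977) ran from -0.71 to 0.45 and from -0.12 to 0.45. The 4 on chromosome 8 (Zfp930, Zfp958, Zfp961 and Zfp963) ran from -0.69 to -0.20 and from -0.50 to -0.11, all below 0. The largest of these, Zfp961, had 549.8 and 625.6 normalized counts in TFoCa and 945.3, 897.5 and 999.7 in WT (-0.69 ± 0.18, limma, adjusted p = 0.05585), without overlap. The 5 on chromosome 2 (Zfp931, Zfp937, Zfp970, Zfp971 and Zfp972) ran from -0.62 to 0.32 and from -0.79 to 0.82.

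The members on chromosomes with 1 or 2 of them were not called either. Zfp956 on chromosome 6 had 415.8 and 391.4 normalized counts in TMut, 330.5 and 430.9 in TFoCa and 418.9, 323.9 and 335.9 in WT. Zfp949 on chromosome 9 had 362.8 and 360.2 in TMut, 486.6 and 387 in TFoCa and 446.4, 421.5 and 439.4 in WT. Zfp938 on chromosome 10 had 304.1 and 282.1 in TMut, 414.8 and 349.3 in TFoCa and 321.7, 341.7 and 369.3 in WT. TFoCa and WT values overlapped in each of these 3 genes. Zfp950 on chromosome 19, Zfp934 and Zfp953 on chromosome 13 and Zfp932 and Zfp951 on chromosome 5 had log2 fold changes between -0.39 and 0.39 relative to WT in both mutant genotypes. On chromosome 4, Zfp992 had 457.3 and 710.7 in TMut, against 260.5, 315.7 and 303.7 in WT, without overlap (0.96, adjusted p = 0.05173), and Zfp990 had 431.9 and 858.4 in TMut, 107.3 and 469.8 in TFoCa and 255.8, 466.5 and 296.8 in WT, with wide spread in both mutant genotypes.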

How the data were processed

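RNA was sequenced from 7 neural stem cell libraries (2 TMut, 2 TFoCa and 3 WT). The authors deposited 1 table of normalized counts (unit signal), gene counts divided by a DESeq2 size factor, made with STAR 2.7.3a on mouse genome mm39 after Trim Galore 0.6.5, and with featureCounts, DESeq2 and SAMtools, per the submitters' processing notes; settings and annotation are not given in the sources used here. Whole reads were recovered within 0.001 read for 100% of values. Among low counts (1 to 20 reads) even numbers made up 70.3% to 79.3%, as when each mate of a pair is counted. The smallest sum over the 7 libraries was 71 reads, so genes with fewer reads are not in the table. Counting precision follows from 33340167 to 62545457 reads per library.

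The filter asked for at least 10 normalized counts in 2 or more libraries and kept 18134 of 18145 genes. With limma 3.58.1 in R 4.3.3, log2(normalized count + 1) was modelled with an intensity trend for all 3 genotypes at once, leaving 4 residual degrees of freedom, and p-values were adjusted over all genes tested. The procedure was tested on simulated data. Alternatives were a pseudocount of 8, no filter, a mean of 50 or more, TMM factors, count tests on the recovered reads (limma-voom, DESeq2 1.42.0 and edgeR 4.0.16), a fit to 2 genotypes, a replicate block and leaving out each library. After each genotype's mean was taken out per gene, same-numbered libraries of different genotypes correlated by 0.0192 to 0.185 and were not taken to pair. Labels give a separate line per library but no independent derivation, so p-values measure the spread between these lines.

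Members and lists were chosen with earlier results of these data known. The naming rule takes, per comparison, up to 12 called members in each direction and the 2 uncalled members with the largest change, the 3 highest and 3 lowest by WT mean, and 2 genes of each list; others were named after their values were seen. Chromosome, exon length, open reading frames and shared 100-base stretches come from GRCm38 annotation, another build than that of the reads, so positions are given only for the printed promoter windows, which are those of the reference genome, not of these lines.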

Additional observations from a re-analysis of the deposited data

How the results depend on the processing

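Every called log2 fold change kept its direction under all alternatives. The count of called members in TFoCa versus WT (6) was 11 with DESeq2, 0 with limma-voom and 3 with the replicate block, and 1 to 9 with 1 library left out. In TMut versus WT (10) it was 6 with the replicate block and 4 to 11 with 1 library left out. In TMut versus TFoCa (15) it was 7 in a fit to these 2 genotypes and 7 to 18 with 1 library left out. The other counts stayed within 1.5 times, that of the block in TMut versus TFoCa (15) among them. Why the counts moved was not tested.

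Log2 fold changes of uncalled members turned round as follows, and the cause was not tested. In TFoCa versus WT, Zfp952 became 0.0021 with TMM factors, 0.00031 with edgeR and 0.0046 with limma-voom. With 1 library left out it ran from -0.08 to 0.03, Zfp974 from -0.0032 to 0.23, Zfp939 from -0.13 to 0.37 and Zfp983 from -0.03 to 0.16. In TMut versus WT, Zfp978 became 0.05 with a pseudocount of 8, 0.03 with TMM factors, 0.6 with edgeR and 0.57 with DESeq2, and ran from -1.47 to 1.46 with 1 library left out. In the same way Zfp989 ran from -1.19 to 1.56, Zfp986 from -2.9 to 0.24, Zfp961 from -0.4 to 0.16, Zfp998 from -4.16 to 0.62, Zfp972 from -0.11 to 1.75, Zfp980 from -0.49 to 1.74, Zfp987 from -0.41 to 1.89, Zfp981 from -0.25 to 1.71, Zfp988 from -0.6 to 1.3, Zfp982 from -0.09 to 1.24 and Zfp936 from -0.67 to 1.13. In TMut versus TFoCa, Zfp948 ran from -0.04 to 0.28 and Zfp986 from -1.05 to 2.09. Depth limits Zfp998 and Zfp989 in TFoCa, where each had 2 reads or fewer over both libraries.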

Other observations

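Some members uncalled in TMut versus WT with all libraries were called with 1 TMut line left out. Without TMut replicate 1, Zfp980 (log2 fold change 1.74) and Zfp992 (1.28) were higher in TMut. In the same fit Zfp933 (-0.75), Zfp944 (-0.69) and Zfp952 (-0.56) were lower. Without TMut replicate 2, Zfp986 had -2.9 and Zfp998 had -4.16, where Zfp998 rests on 2 reads in the TMut library that was kept. In these fits the lone TMut library is taken to vary like the other groups.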
